A study of Homo sapiens with 9 samples.

Results

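Transcripts of 46 genes of DNA replication and mitosis were examined in human spinal cord organoids (SCOs) exposed to valproic acid (VPA) with or without Rapamycin. The genes were taken by symbol from a list of known function, 22 of them from DNA synthesis (S-phase members) and 24 from chromosome segregation and its control (G2/M members). All 46 were found among the 26871 genes that the 3 count tables share, and all passed the filter on low counts in every comparison. Bulk poly-A RNA sequencing had been carried out on SCOs of the WTC induced pluripotent stem cell line, 3 libraries for each condition, with an exposure of 96 h according to the labels. The text of the study gives a shorter exposure to VPA in some places and the labelled length in others. Which of them holds for these libraries was not settled. The conditions were vehicle (labelled FGF), VPA, which inhibits histone deacetylases, and VPA+Rapamycin, where Rapamycin inhibits the mTOR kinase. According to the study, vehicle was FGF alone, and SCOs exposed to VPA received FGF as well. All samples come from clones of this cell line that carry a SOX10 reporter, several SCOs were pooled for each sample, and a code for each replicate recurs in every condition, while the study describes its sequenced samples as separate clones. The labels do not name the clone behind a code. There is no condition with Rapamycin alone. The study asked whether SCOs exposed to VPA become senescent, a state in which cells have left the cell cycle, and whether Rapamycin prevents it.

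A cell copies its DNA once per cycle. Before S phase, CDC6 and CDT1 load the MCM2 to MCM7 ring onto origins of replication, and CDC45 and the GINS proteins then turn the ring into an active helicase, under the control of cyclin E and of E2F transcription factors. In G2 and mitosis a second set of genes is transcribed, with cyclins A and B, the kinase CDK1, the Polo and Aurora kinases, the spindle checkpoint and the motors that separate the chromosomes. In the developing spinal cord the dividing cells are the neural progenitors, whereas neurons have left the cycle, so the level of these transcripts in a whole organoid depends on the number of dividing cells as well as on transcription in each of them. In bulk samples fewer dividing cells and less RNA per cell cannot be told apart.

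Libraries held 15290299 to 17417338 counted reads, with similar totals in the 3 conditions. Neural progenitor markers such as SOX1, SOX2, SOX3, PAX6 and NES were expressed in every library, and the pluripotency markers POU5F1 and NANOG had at most 14 counts. Vehicle replicate 3 stood apart from the other vehicle libraries in the members. It had the lowest level of its group in 18 of 22 S-phase members and in 16 of 24 G2/M members, and its S-phase members lay at a median log2 ratio of -0.51 to the other vehicle libraries, against -0.03 over all genes. Over all genes the spread of this ratio (scaled median absolute deviation) was 0.45 for vehicle replicate 3, 0.43 for replicate 1 and 0.23 for replicate 2. Replicate 1 thus departed about as much over all genes. Vehicle replicate 3 also held the highest counts of several markers of other cell types. Among them were 307 counts of the neural crest gene TFAP2B against 2 in each other vehicle library, and 4426 counts of the neuronal gene ELAVL4 against 2771 and 2937. Counts and medians of the members against vehicle are therefore also given without this library. The comparisons with vehicle share its 3 libraries, and those with VPA share the VPA libraries. Replicates are separate samples in the labels and, as the study describes them, separate clones of the same cell line. The p-values therefore measure only the spread between these samples and none between cell lines. How much of that spread is technical was not tested.

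Promoter sequences were examined first, because the S-phase and the G2/M members are known to be under different promoter elements. Windows from 250 bases before to 50 bases after the transcription start were taken from RefSeq on GRCh38.p14 and matched by symbol for 37 of the 46 members (19 S-phase and 18 G2/M). MCM4, MCM5, CCNE2, AURKA, BIRC5, FOXM1, TPX2, TTK and UBE2C were not matched. Motifs of 3 kinds were searched on both strands, namely the 4 E2F octamers TTTCCCGC, TTTGGCGC, TTTCGCGC and TTTGCCGC, the cell cycle genes homology region (CHR) written as TTTGAA or TTCGAA, and the NF-Y box CCAAT. Neighbouring E2F octamers on opposite strands can share letters, and a gene with several windows was counted once if any of them held a match. An E2F octamer was found in 14 of 19 S-phase members and in 2 of 18 G2/M members, where 3.99% of all 27305 genes with a window had one. The CHR showed the opposite split, with 2 of 19 S-phase members and 13 of 18 G2/M members against 19.5% of all genes. The NF-Y box was present in 15 of 19 S-phase and 16 of 18 G2/M members, against 39.7% of all genes. Counted by window, E2F octamers were in 15 of 27 S-phase and 3 of 23 G2/M windows, and CHR letters in 2 of 27 and 15 of 23. These are matches of letters and not measurements of binding.

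The sequences below show 160 bases before the start for S-phase members that were higher with VPA and for G2/M members that were lower with Rapamycin. Each runs 5′ to 3′ on the strand of the gene, and capitals mark every match of the motifs on either strand. MCM6 (chr2:135876444-135876603, minus strand) carried E2F octamers on both strands at 2 places, overlapping each other at each place, with NF-Y boxes at 100 and 58 bases before the start. Its window also held a CHR match outside the stretch shown. POLA1 (chrX:24693758-24693917, plus strand) had an E2F octamer that began 137 bases before the start, with an NF-Y box at 36 bases. GINS2 (chr16:85688955-85689114, minus strand) had an octamer that began 31 bases before the start, with an NF-Y box at 158 bases.
MCM6: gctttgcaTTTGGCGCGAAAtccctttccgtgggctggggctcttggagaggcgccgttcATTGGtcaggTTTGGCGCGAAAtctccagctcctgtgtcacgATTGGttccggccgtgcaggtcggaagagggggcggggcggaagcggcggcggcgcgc
POLA1: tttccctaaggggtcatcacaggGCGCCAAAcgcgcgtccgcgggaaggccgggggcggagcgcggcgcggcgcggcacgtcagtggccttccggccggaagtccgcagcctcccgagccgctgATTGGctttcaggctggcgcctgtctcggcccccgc
GINS2: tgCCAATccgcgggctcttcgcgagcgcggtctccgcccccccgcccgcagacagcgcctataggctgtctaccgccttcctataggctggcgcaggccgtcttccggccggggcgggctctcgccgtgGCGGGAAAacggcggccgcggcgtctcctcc

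In the G2/M members shown, no E2F octamer was present in the stretch. BUB1B (chr15:40160909-40161068, plus strand) had a CHR that began 23 bases before the start. KIF11 (chr10:92592970-92593129, plus strand) had a CHR on the other strand 28 bases before the start, with an NF-Y box at 53 bases. CCNB1 (chr5:69166990-69167149, plus strand) had NF-Y boxes at 87 and 55 bases and no CHR as written here.
BUB1B: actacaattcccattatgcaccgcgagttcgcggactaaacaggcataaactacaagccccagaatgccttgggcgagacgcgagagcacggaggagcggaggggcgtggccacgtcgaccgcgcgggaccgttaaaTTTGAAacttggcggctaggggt
KIF11: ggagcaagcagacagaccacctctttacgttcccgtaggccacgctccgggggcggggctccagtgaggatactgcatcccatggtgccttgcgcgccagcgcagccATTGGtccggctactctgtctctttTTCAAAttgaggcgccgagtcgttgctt
CCNB1: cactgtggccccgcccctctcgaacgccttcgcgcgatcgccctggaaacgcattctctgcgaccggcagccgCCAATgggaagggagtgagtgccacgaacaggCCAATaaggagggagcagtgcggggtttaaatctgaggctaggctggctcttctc

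Per length and depth (the authors' FPKM), the members spanned a wide range of levels in vehicle. Among S-phase members PCNA, the sliding clamp of the replicative polymerases, was highest with 136 ± 11.6 FPKM (SD, n = 3), ahead of MCM7 with 61.4 ± 12.6 FPKM. CCNE2 and E2F2 were lowest, with 2.15 ± 0.35 and 3.17 ± 0.94 FPKM. TOP2A, the topoisomerase that untangles sister chromatids, led the G2/M members with 136 ± 15.1 FPKM, followed by UBE2C with 94.9 ± 13.1 and CCNB1 with 92.4 ± 4.96 FPKM. UBE2C and CCNB1 did not differ by more than their spread. NUSAP1 was the lowest G2/M member with 5.05 ± 1.00 FPKM.

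S-phase members were higher in VPA than in vehicle, while most G2/M members showed no detected change. Of the 22 S-phase members, 13 were higher in VPA than in vehicle and none was lower (edgeR's quasi-likelihood test, called where the Benjamini-Hochberg adjusted p did not exceed 0.05), where 16.4% of the 17360 genes tested were higher and 15.7% were lower. All 22 estimates were positive, from 0.01 for POLE to 1.23 for CCNE1, and their median log2 fold change was 0.47 against -0.003 over all genes. Of the 24 G2/M members 3 were higher (KIF11, BIRC5 and CENPF) and none was lower, a share near or under that of all genes. At an unadjusted p under 0.05, 17 S-phase and 5 G2/M members were higher and 0 of either class were lower, against 21.6% of all genes higher and 21.5% lower. Estimates of 13 were positive, with a median of 0.01 and a range from -0.16 for CCNB2 to 0.48 for KIF11. For 19 of the 24 the 95% interval of the log2 fold change included 0. Without vehicle replicate 3 the counts were again 13 and 3, with 18.6% of all genes higher, and the medians were 0.35 and -0.03. CCNE1, CDC6, GINS2, MCM10, MCM3, MCM6, POLA1, UHRF1, BIRC5 and KIF11 passed the test under every alternative tried. Leaving out VPA replicate 2 left 8 S-phase members past the threshold, with 9.97% of all genes higher, and leaving out vehicle replicate 1 brought the G2/M count to 6, with 19.5% of all genes higher.

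**Figure D1:**
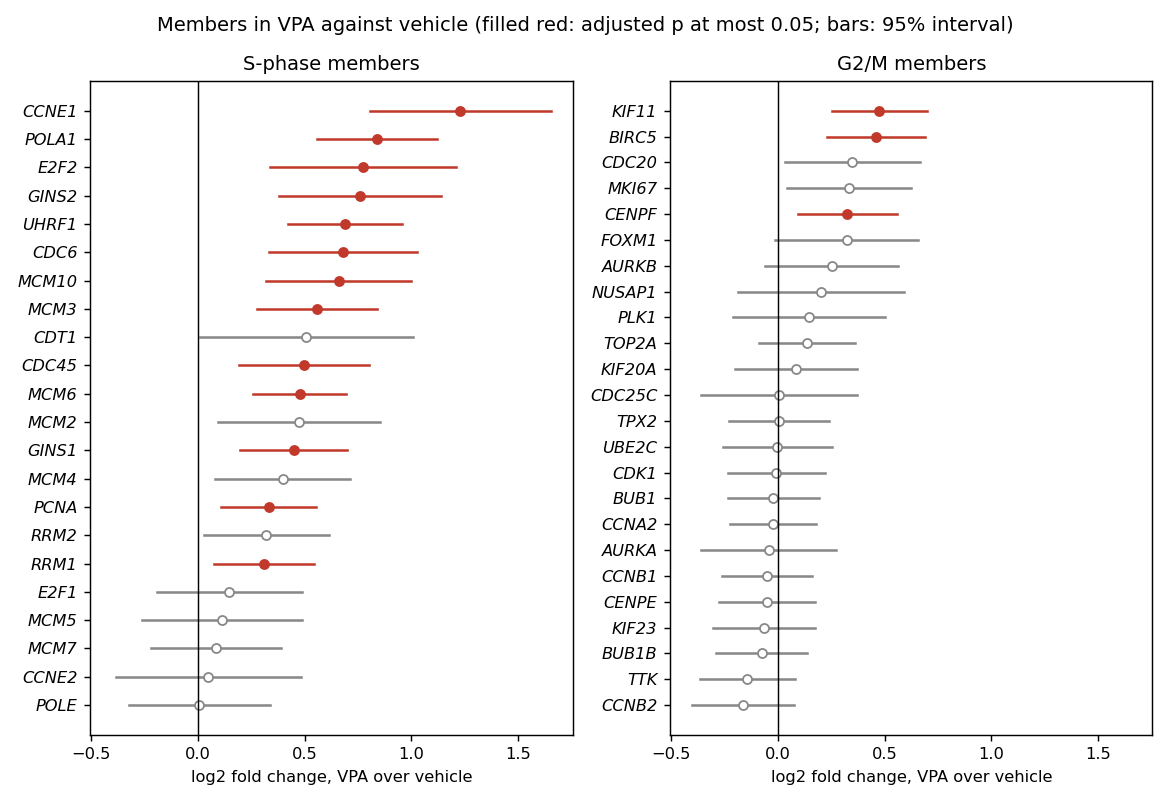
Log2 fold change of each member in VPA over vehicle with its 95% interval, S-phase members on the left and G2/M members on the right, filled red where the adjusted p was at most 0.05. All 22 S-phase points lie to the right of 0, from 0.01 to 1.23, whereas the G2/M points lie on both sides, from -0.16 to 0.48.

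Summed over each class, the levels were as follows. The S-phase members summed to 34297, 35169 and 26046 normalized counts in the vehicle libraries, to 40493, 43575 and 41042 in VPA and to 40276, 35195 and 33703 in VPA+Rapamycin. All VPA sums lay above all vehicle sums, and VPA+Rapamycin replicate 1 lay just under the lowest VPA library. The G2/M members summed to 69885, 76959 and 64938 normalized counts in the vehicle libraries, against 79316, 80132 and 76366 with VPA and 70359.6, 61685 and 64951 with VPA+Rapamycin. Here VPA and vehicle overlapped, and VPA+Rapamycin lay wholly under VPA. Of 10 neuron markers 5 were lower and 1 was higher in VPA, where 15.7% of all genes were lower and 16.4% higher. Their summed levels were 18814 to 31941 in vehicle, 17109 to 18641 in VPA and 18107 to 19334 in VPA+Rapamycin. Vehicle replicate 3 held the highest vehicle counts of most neuron markers, such as ISL1 (137 against 20 and 14) and DCX (6323 against 3711 and 4919). Of 5 neural crest markers tested 4 were lower in VPA and none was higher, and SOX10 had an estimate of -5.15 (SE 0.29). Of 11 mesenchymal markers 3 were higher in VPA (COL1A1, COL1A2 and THY1) and none was lower, with summed levels of 2991 to 5867 in vehicle, 10532 to 13072 in VPA and 5116 to 7094 in VPA+Rapamycin. Most of the sum in VPA came from both collagens. CD44 was at or under 14 counts and DCN at 0 in 2 vehicle libraries. Progenitor markers summed to 71416 to 75467 in vehicle, 72391 to 74326 in VPA and 65239 to 74392 in VPA+Rapamycin. Single markers moved under this sum. Of 8 progenitor markers 1 was higher in VPA (HES5, 0.95, SE 0.10) and 1 lower (VIM, -0.40, SE 0.09). With Rapamycin over VPA 2 were lower (HES5, -0.61, and FABP7, -0.55) and none was higher. In the same comparison 6 of 11 mesenchymal markers were lower and none was higher. Of 5 neural crest markers 2 were higher and none was lower, and of 9 neuron markers 2 were higher and 1 was lower. Over all genes 3.73% were lower and 3.01% higher there. The marker calls were not repeated without vehicle replicate 3, and the part of these other cells in the results was not tested.

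**Figure D2:**
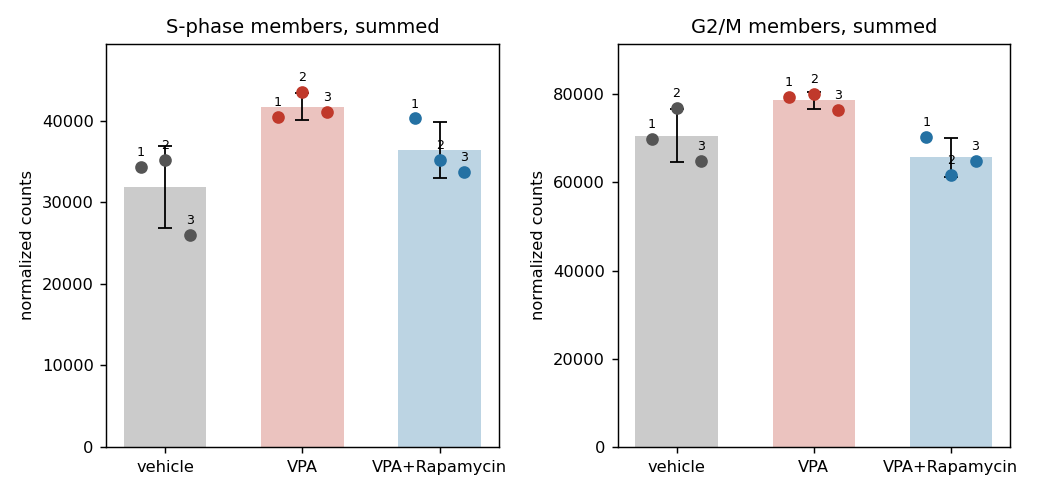
Summed normalized counts of the 22 S-phase members (left) and the 24 G2/M members (right) in each library, with bars for the mean of 3 libraries, whiskers for the SD and numbers for the replicate. The 3 VPA libraries sit above every vehicle library for the S-phase members, and vehicle replicate 3 is the lowest point on the left at 26046.

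With Rapamycin added to VPA, members of both classes were lower. Of the S-phase members 6 were lower and none was higher in VPA+Rapamycin than in VPA, where 3.73% of the 17317 genes tested were lower and 3.01% higher, and 20 of 22 estimates were negative with a median log2 fold change of -0.23. Of the G2/M members 13 of 24 were lower and none was higher, 23 estimates were negative, and the median was -0.25 against 0.004 over all genes. These changes were small, with the 13 G2/M members between 15.9% and 32.7% lower. At an unadjusted p under 0.05, 12 S-phase and 19 G2/M members were lower and 0 were higher, against 11% of all genes lower and 10.4% higher. The counts rested on the spread within these 6 libraries. When all 9 libraries were fitted together, with vehicle contributing to the estimate of the spread, 0 S-phase and 2 G2/M members (BIRC5 and BUB1B) passed, while the share of all genes that were lower went from 3.73% to 0.383% and the medians stayed at -0.23 and -0.25. In that fit the median standard error of the G2/M members was 0.10 in place of 0.08. Leaving out VPA replicate 2 gave 0 S-phase and 6 G2/M members, with 1.66% of all genes lower. Leaving out VPA+Rapamycin replicate 3 gave 1 and 8, with 1.94% of all genes lower. Leaving out VPA+Rapamycin replicate 2 gave 2 S-phase members (3.40% of all genes), and leaving out VPA+Rapamycin replicate 1, the highest of its group, gave 10 (3.76% of all genes). BIRC5 and BUB1B passed under every alternative tried in this comparison, and no S-phase member did.

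Against vehicle, few members passed in VPA+Rapamycin. Of the S-phase members 4 were higher (CCNE1, POLA1, UHRF1 and MCM6) and none was lower, against 9.81% and 9.22% of the 17383 genes tested that were higher and lower, with 20 positive estimates and a median log2 fold change of 0.21. Of the G2/M members 5 were lower (BUB1B, AURKA, CCNA2, BUB1 and CCNB1) and none was higher, with 18 negative estimates and a median of -0.18. With library totals alone in place of TMM the split over all genes was 2060 higher and 1255 lower, against 1705 and 1602, and 3 G2/M members were lower. Without vehicle replicate 3 the medians were 0.11 for the S-phase and -0.28 for the G2/M members. The G2/M count was 10 without vehicle replicate 3, where 11.1% of all genes were lower, 1 without vehicle replicate 2, where 4.28% were lower, 1 without VPA+Rapamycin replicate 1 or 3 and 0 without VPA+Rapamycin replicate 2, where 2.97% to 3.77% were lower. The S-phase count was 4 without vehicle replicate 3, 1 without VPA+Rapamycin replicate 1 and 2 without replicate 2 or 3, where 11.6%, 4.24% and 4.58% to 4.80% of all genes were higher. CCNE1 alone passed under every alternative tried in this comparison.

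**Figure D3:**
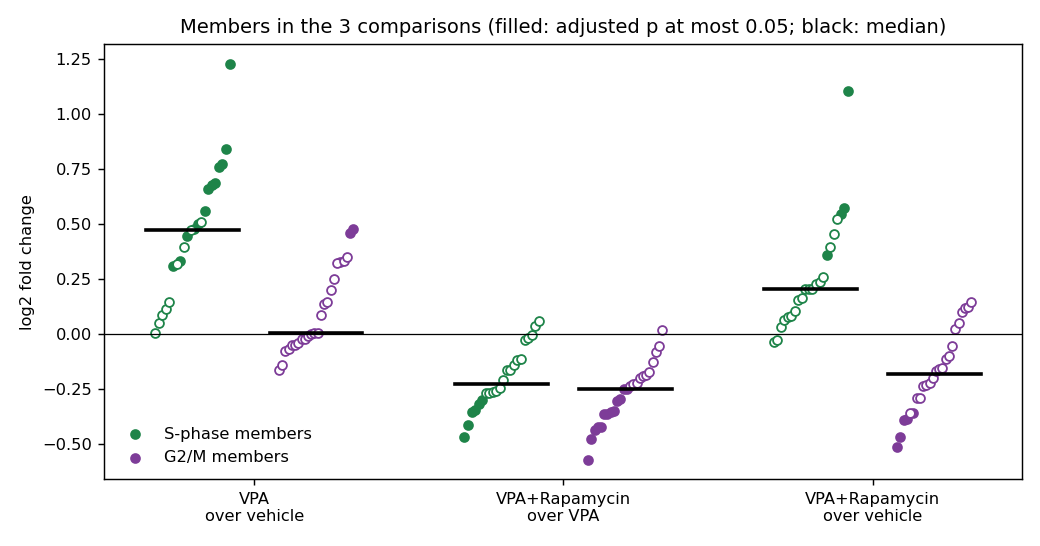
Log2 fold change of each member in the 3 comparisons, S-phase members in green and G2/M members in purple, filled where the adjusted p was at most 0.05, with black lines for the medians. The green medians are 0.47, -0.23 and 0.21 and the purple ones 0.01, -0.25 and -0.18.

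The calls were then read together over the comparisons. The VPA libraries enter both the comparison with vehicle and that with Rapamycin, so calls in these are not independent. The share of all genes with each pattern was not computed. Among the S-phase members 5 (CDC6, GINS1, GINS2, MCM3 and RRM1) were higher with VPA and lower with Rapamycin over VPA. In VPA+Rapamycin these 5 did not pass against vehicle. Another 4 (CCNE1, MCM6, POLA1 and UHRF1) were higher in both VPA conditions than in vehicle, and 4 more (CDC45, E2F2, MCM10 and PCNA) passed in VPA over vehicle and in no other comparison. MCM4 was lower with Rapamycin without having passed in VPA against vehicle, and 8 members passed in no comparison. Among the G2/M members BIRC5 and KIF11 were higher with VPA and lower with Rapamycin over VPA. The 5 that ended lower than vehicle (AURKA, BUB1, BUB1B, CCNA2 and CCNB1) had not passed in VPA against vehicle, 6 passed as lower against VPA and in no other comparison, CENPF passed as higher in VPA over vehicle and in no other comparison and 10 passed in no comparison.

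CDC6 and CDT1 are the loading factors of the MCM ring. CDC6 had 429, 639.6 and 455 normalized counts in the vehicle libraries, against 812, 889.6 and 754 with VPA and 706, 522 and 539 with VPA+Rapamycin. Every VPA library exceeded every other library, while VPA+Rapamycin overlapped vehicle. The log2 fold change was 0.68 (SE 0.16, adjusted p = 0.00766) in VPA over vehicle, -0.47 (SE 0.11, adjusted p = 0.0166) in VPA+Rapamycin over VPA and 0.21 (SE 0.18, adjusted p = 0.453) in VPA+Rapamycin over vehicle, all by edgeR's quasi-likelihood test as below. For CDT1 the values were 1004, 889.7 and 447 in vehicle, 1139.5, 1035 and 1171 in VPA and 1032, 949 and 793 in VPA+Rapamycin. Its VPA libraries lay above the others, but vehicle replicate 3 was far under its own group, and the estimate of 0.51 in VPA over vehicle did not pass (SE 0.23, adjusted p = 0.111, or 0.0405 with the replicate as a block). Neither of its other comparisons passed, with -0.27 over VPA (adjusted p = 0.106) and 0.24 over vehicle (adjusted p = 0.523).

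Of the ring itself, MCM3 and MCM6 were higher with VPA, and MCM2, MCM4, MCM5 and MCM7 did not pass. MCM6 had 1916, 2049 and 1846 normalized counts in the vehicle libraries, against 2771, 2860.3 and 2517 with VPA and 2812, 2366 and 2332 with VPA+Rapamycin. Both VPA conditions lay above vehicle in all libraries, by a log2 fold change of 0.48 (SE 0.10, adjusted p = 0.00444) without and 0.36 (SE 0.11, adjusted p = 0.0442) with Rapamycin. MCM3 had 2321, 2242 and 1645 normalized counts in the vehicle libraries, against 3086, 3176 and 2940.0 with VPA and 2673, 2311 and 2203 with VPA+Rapamycin. It was higher with VPA (0.56, SE 0.13, adjusted p = 0.00730) and lower with Rapamycin over VPA (-0.35, SE 0.08, adjusted p = 0.0119), where MCM4 was lower as well (-0.32, SE 0.09, adjusted p = 0.0375).

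MCM2 stood at 2024, 1764 and 1116 normalized counts in the vehicle libraries, against 2249, 2314 and 2283 with VPA and 2176, 1959.8 and 1768 with VPA+Rapamycin. The VPA libraries agreed closely and lay above vehicle, yet the estimate of 0.47 did not pass (SE 0.17, adjusted p = 0.0571, or 0.0247 with the replicate block), and without vehicle replicate 3 it was smaller and passed (0.26, adjusted p = 0.0416). The opposite-strand gene TPRA1 overlaps MCM2, with mean counts of 492.9 and 1969. MCM5 had 1704, 1604 and 1005 normalized counts in the vehicle libraries, against 1405, 1671 and 1622 with VPA and 1726, 1670.4 and 1268 with VPA+Rapamycin. The 3 conditions overlapped, and the estimate of 0.11 in VPA over vehicle (SE 0.17, adjusted p = 0.647) turned to -0.08 without vehicle replicate 3.

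MCM10, CDC45 and the GINS subunits GINS1 and GINS2, which act after loading to fire the helicase, were all higher with VPA. MCM10 had 600.0, 667 and 427 normalized counts in the vehicle libraries, against 930.4, 920.2 and 844 with VPA and 861, 625 and 757 with VPA+Rapamycin. VPA was separate from vehicle and VPA+Rapamycin lay between with overlap, at 0.66 (SE 0.15, adjusted p = 0.00808) and 0.40 (SE 0.18, adjusted p = 0.138) over vehicle. GINS1 had 964, 1105 and 1041 normalized counts in the vehicle libraries, against 1362, 1587 and 1324 with VPA and 1144, 957 and 1101 with VPA+Rapamycin. Its VPA libraries stood alone, and the other conditions covered the same range, with 0.45 (SE 0.11, adjusted p = 0.0124) in VPA over vehicle, -0.41 (SE 0.09, adjusted p = 0.00893) with Rapamycin over VPA and 0.03 (SE 0.12, adjusted p = 0.871) against vehicle. GINS2, whose promoter is shown above, was at 835, 902 and 519 normalized counts in the vehicle libraries, against 1289, 1333 and 1218 with VPA and 1138, 1015 and 959.7 with VPA+Rapamycin. It was higher with VPA (0.76, SE 0.17, adjusted p = 0.00720) and lower with Rapamycin over VPA (-0.30, SE 0.08, adjusted p = 0.0359), and its locus overlaps GSE1 on the other strand, which had a mean count of 200.4% of its own. The GINS2 call with Rapamycin over VPA was lost in 6 of 13 alternatives. CDC45 was higher with VPA (0.50, SE 0.14, adjusted p = 0.0186).

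POLA1, the catalytic subunit of the polymerase that makes primers (chromosome X, 24693919 to 24996986 on GRCh38), had 666, 803 and 605 normalized counts in the vehicle libraries, against 1238, 1335 and 1168 with VPA and 1134, 887 and 1083 with VPA+Rapamycin. Vehicle lay under both other conditions in every library, with 0.84 (SE 0.13, adjusted p = 0.000750) in VPA and 0.57 (SE 0.14, adjusted p = 0.0188) in VPA+Rapamycin. EEF1B2P3, a pseudogene on the other strand, overlaps it with 14.4% of its mean count. POLE, the catalytic subunit of the leading-strand polymerase, had 2503, 2400.5 and 1601 normalized counts in the vehicle libraries, against 2045, 2306 and 2219 with VPA and 2234, 2125 and 2063 with VPA+Rapamycin. All 3 conditions overlapped, and the estimate in VPA over vehicle was 0.01 with a 95% interval from -0.32 to 0.34. PCNA had 3171, 3651 and 3128 normalized counts in the vehicle libraries, against 4178, 4471 and 3958 with VPA and 4151, 3518 and 3540.1 with VPA+Rapamycin. VPA lay above vehicle throughout, at 0.33 (SE 0.10, adjusted p = 0.0284, or 0.0539 with the replicate block), and VPA+Rapamycin did not pass against either condition.

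RRM1 and RRM2 form ribonucleotide reductase, which makes the deoxynucleotides for DNA synthesis. RRM1 had 2396, 2816 and 2333 normalized counts in the vehicle libraries, against 3136, 3336 and 2933 with VPA and 2880.2, 2241 and 2271 with VPA+Rapamycin. VPA exceeded both other conditions, with 0.31 over vehicle (SE 0.11, adjusted p = 0.0470, or 0.0503 without vehicle replicate 3 and 0.0789 with the replicate block) and -0.34 with Rapamycin (SE 0.09, adjusted p = 0.0288), and vehicle and VPA+Rapamycin overlapped. These RRM1 calls were lost in 6 of 13 alternatives for VPA over vehicle and in 5 of 13 with Rapamycin over VPA. RRM2 had 1054, 1488 and 1262 normalized counts in the vehicle libraries, against 1484, 1724 and 1574 with VPA and 1564, 1326 and 1368 with VPA+Rapamycin. The ranges of vehicle and VPA touched, and RRM2 did not pass in VPA over vehicle (0.32, SE 0.13, adjusted p = 0.0889) nor with Rapamycin (-0.16, SE 0.08, adjusted p = 0.267).

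Cyclin E with its partner kinase starts S phase, and CCNE1 (ENSG00000105173, chromosome 19, 29811898 to 29824308 on GRCh38, plus strand) had the largest estimate of all members with VPA. It had 154, 204 and 119.6 normalized counts in the vehicle libraries, against 343, 399 and 386 with VPA and 368, 347 and 319.6 with VPA+Rapamycin. Every treated library exceeded every vehicle library, and the treated conditions overlapped. CCNE1 was 2.34-fold higher in VPA (log2 1.23, SE 0.19, adjusted p = 0.000901) and 2.15-fold higher in VPA+Rapamycin (log2 1.11, SE 0.20, adjusted p = 0.00410), with -0.12 between the treated conditions (SE 0.11, adjusted p = 0.588). Its promoter window held none of the motifs searched. Its paralogue CCNE2 had 129, 163 and 177 normalized counts in the vehicle libraries, against 151, 191 and 147 with VPA and 169.9, 162 and 168 with VPA+Rapamycin. No condition stood apart, with 0.05 in VPA over vehicle (SE 0.20, adjusted p = 0.874), and INTS8, which overlaps it on the other strand, had 1031.5% of its mean count, so its count is uncertain.

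E2F1 and E2F2 are activators of the genes of S phase. E2F1 had 962, 988 and 653 normalized counts in the vehicle libraries, against 888, 959 and 1052 with VPA and 1024, 1066 and 923 with VPA+Rapamycin. Its conditions overlapped and its estimate of 0.15 in VPA over vehicle (SE 0.16, adjusted p = 0.503) changed sign to -0.02 without vehicle replicate 3. E2F2 had 354, 317 and 189 normalized counts in the vehicle libraries, against 464, 508 and 506 with VPA and 444, 416 and 383 with VPA+Rapamycin. All vehicle libraries lay under all treated ones, and it passed in VPA over vehicle (0.77, SE 0.20, adjusted p = 0.0125) but not in VPA+Rapamycin over vehicle (0.52, SE 0.21, adjusted p = 0.0986, or 0.0229 with the replicate block). UHRF1, which recruits the maintenance DNA methyltransferase to newly copied DNA, had 1660.3, 1586 and 1229 normalized counts in the vehicle libraries, against 2322, 2448 and 2492 with VPA and 2349.7, 2157 and 2056 with VPA+Rapamycin. It stood clear of vehicle in both conditions, at 0.69 (SE 0.12, adjusted p = 0.00172) and 0.54 (SE 0.13, adjusted p = 0.0154). Among the 19 S-phase members with a promoter window, 9 of the 14 with an E2F octamer and 4 of the 5 without one were higher with VPA.

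**Figure D4:**
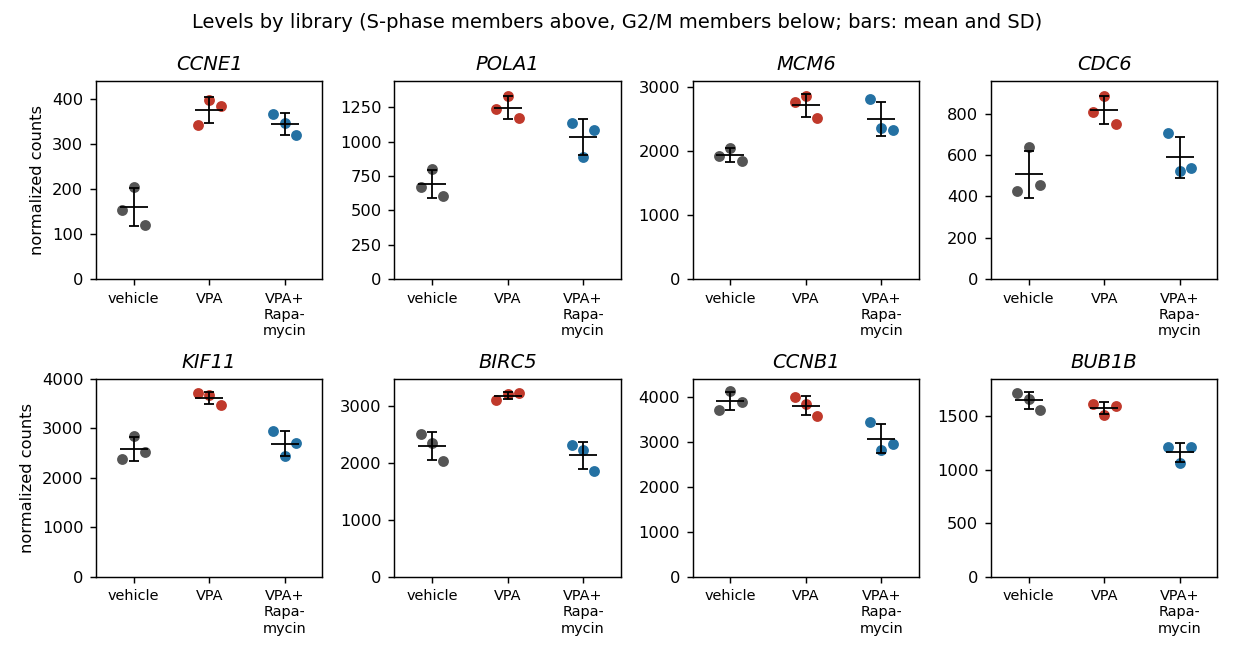
Normalized counts of 4 S-phase members (top) and 4 G2/M members (bottom) in each library, with the mean and SD of 3 libraries in black. CCNE1, POLA1 and MCM6 are higher than vehicle in both treated conditions, CDC6, KIF11 and BIRC5 in VPA, and CCNB1 and BUB1B are lower in VPA+Rapamycin.

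Among the G2/M members, the cyclins and CDK1 drive entry into mitosis. CCNA2 had 2434, 2583 and 2507 normalized counts in the vehicle libraries, against 2474, 2474 and 2506 with VPA and 2003, 1818 and 1952 with VPA+Rapamycin. Vehicle and VPA were alike in range and VPA+Rapamycin was under both, with -0.02 (SE 0.09, adjusted p = 0.868) in VPA over vehicle, -0.37 (SE 0.07, adjusted p = 0.00449) with Rapamycin over VPA and -0.39 (SE 0.10, adjusted p = 0.0207) over vehicle. EXOSC9 overlaps CCNA2 on the other strand with 41.1% of its mean count, and since the library kit does not mark strand, reads in such overlaps cannot be assigned to either gene. CCNB1 had 3714, 4120.1 and 3892 normalized counts in the vehicle libraries, against 3984, 3843 and 3576 with VPA and 3432, 2811 and 2952 with VPA+Rapamycin. The same order held, with -0.05 (SE 0.10, adjusted p = 0.718), -0.31 (SE 0.08, adjusted p = 0.0290) and -0.36 (SE 0.11, adjusted p = 0.0423) in the same order of comparisons. The CCNB1 call in VPA+Rapamycin was lost in 5 of 13 alternatives over VPA and in 6 of 13 over vehicle. CCNB2 had 2279.9, 2397 and 1932 normalized counts in the vehicle libraries, against 2006, 2078 and 1863 with VPA and 1914, 1727 and 1787 with VPA+Rapamycin. It did not pass in any comparison, and its estimate of -0.16 in VPA over vehicle (adjusted p = 0.280) was the lowest of all members there.

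CDK1 had 2664, 3056 and 3076 normalized counts in the vehicle libraries, against 2941, 3124 and 2749.5 with VPA and 2530.5, 2629 and 2343 with VPA+Rapamycin. VPA+Rapamycin was below every other library, but the estimates of -0.23 against VPA (SE 0.08, adjusted p = 0.0781) and -0.24 against vehicle (SE 0.11, adjusted p = 0.142) did not pass. CDC25C, the phosphatase that activates CDK1, had 536, 496 and 345 normalized counts in the vehicle libraries, against 419, 513 and 459 with VPA and 507, 479 and 417 with VPA+Rapamycin. Its conditions overlapped, and FAM53C on the other strand had 312.3% of its mean count. FOXM1, a transcription factor of the G2/M genes, had 1644, 1573 and 1072 normalized counts in the vehicle libraries, against 1620.0, 1986 and 1790.5 with VPA and 1519.7, 1198 and 1148 with VPA+Rapamycin. VPA+Rapamycin lay under VPA and overlapped vehicle, with -0.48 over VPA (SE 0.10, adjusted p = 0.00733), 0.32 for VPA over vehicle (SE 0.15, adjusted p = 0.130) and -0.16 for VPA+Rapamycin over vehicle (SE 0.17, adjusted p = 0.548). RHNO1 overlaps FOXM1 with 74.0% of its mean count.

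Of the mitotic kinases, AURKA, AURKB, PLK1, BUB1 and BUB1B were lower with Rapamycin over VPA, and none passed in VPA over vehicle. AURKA had 1075, 906 and 719 normalized counts in the vehicle libraries, against 922, 904 and 812 with VPA and 679, 665 and 620.4 with VPA+Rapamycin. All VPA+Rapamycin libraries were under all others, with -0.42 over VPA (SE 0.09, adjusted p = 0.00810) and -0.47 over vehicle (SE 0.15, adjusted p = 0.0473). The AURKA call was lost in 2 of 13 alternatives over VPA and in 7 of 13 over vehicle. PLK1 had 2622, 2319 and 1520.2 normalized counts in the vehicle libraries, against 2434, 2373 and 2385 with VPA and 2033, 2025 and 1778 with VPA+Rapamycin. It separated from VPA (-0.30, SE 0.08, adjusted p = 0.0220) but not from vehicle (-0.15, SE 0.17, adjusted p = 0.568), where replicate 3 was lowest, and without that library PLK1 passed against vehicle as well (-0.35, adjusted p = 0.0303).

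BUB1 and BUB1B act in the spindle checkpoint, which holds mitosis until all chromosomes are attached. BUB1 had 2435, 2572 and 2239.9 normalized counts in the vehicle libraries, against 2481, 2369 and 2339 with VPA and 1949.9, 1789 and 1835 with VPA+Rapamycin. BUB1B had 1722, 1667 and 1564 normalized counts in the vehicle libraries, against 1618, 1512 and 1602 with VPA and 1215, 1065 and 1211 with VPA+Rapamycin. Both were separate from vehicle and from VPA in every library of VPA+Rapamycin. For BUB1 the estimates were -0.36 over VPA (SE 0.07, adjusted p = 0.00497) and -0.39 over vehicle (SE 0.10, adjusted p = 0.0247). BUB1B had -0.44 over VPA (SE 0.08, adjusted p = 0.00239) and -0.51 over vehicle (SE 0.11, adjusted p = 0.00920), the lowest estimate of any member against vehicle. TTK, the kinase that starts the same checkpoint, had 1443, 1629 and 1549.8 normalized counts in the vehicle libraries, against 1443, 1416 and 1357 with VPA and 1541, 1221 and 1289.7 with VPA+Rapamycin. It overlapped between VPA and VPA+Rapamycin and passed nowhere, with -0.05 in that comparison (SE 0.09, adjusted p = 0.772).

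CDC20 and UBE2C serve the anaphase-promoting complex, which ends mitosis by marking cyclin B for destruction. CDC20 had 2721, 2292 and 1710.3 normalized counts in the vehicle libraries, against 2975, 2838 and 2809 with VPA and 2430.3, 2539 and 2265 with VPA+Rapamycin. VPA was the highest condition in all libraries, but the estimate over vehicle of 0.35 did not pass (SE 0.14, adjusted p = 0.0863), and with Rapamycin it was lower than VPA (-0.25, SE 0.07, adjusted p = 0.0460, or 0.0809 with the replicate block), a call lost in 8 of 13 alternatives. UBE2C was lower with Rapamycin over VPA (-0.36, SE 0.07, adjusted p = 0.00462) and had an estimate of -0.36 over vehicle (SE 0.12, adjusted p = 0.0592).

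KIF11 (chromosome 10, 92593286 to 92655395), the motor that separates the spindle poles, and BIRC5 or survivin (chromosome 17, 78214186 to 78225636), a subunit of the Aurora B complex, passed in both the VPA and the Rapamycin comparison. KIF11 had 2384, 2854 and 2518 normalized counts in the vehicle libraries, against 3709, 3675 and 3479 with VPA and 2938, 2436 and 2697 with VPA+Rapamycin. BIRC5 had 2508, 2348 and 2019 normalized counts in the vehicle libraries, against 3098, 3199 and 3217 with VPA and 2307, 2220.4 and 1857 with VPA+Rapamycin. In both genes VPA stood above all other libraries, and the other conditions overlapped. KIF11 was higher with VPA (0.48, SE 0.10, adjusted p = 0.00497) and lower with Rapamycin over VPA (-0.43, SE 0.08, adjusted p = 0.00279). BIRC5 was higher with VPA (0.46, SE 0.10, adjusted p = 0.00694) and lower with Rapamycin over VPA (-0.57, SE 0.08, adjusted p = 0.000389), the lowest estimate of any member in that comparison. Neither passed in VPA+Rapamycin over vehicle, with 0.05 (95% interval -0.20 to 0.30) and -0.12 (95% interval -0.39 to 0.15).

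MKI67, TOP2A and CENPF, often read as markers of dividing cells, had small estimates, and CENPF passed in VPA over vehicle. MKI67 had 5354, 6936 and 4657 normalized counts in the vehicle libraries, against 6872, 7198 and 7412 with VPA and 6672, 5608 and 6544 with VPA+Rapamycin. Vehicle replicate 2 reached the VPA range, and the estimate of 0.33 did not pass (SE 0.13, adjusted p = 0.0764). TOP2A had 12784, 15919 and 14609.9 normalized counts in the vehicle libraries, against 16317, 16559 and 15085 with VPA and 15035, 12931 and 13992 with VPA+Rapamycin. It passed in no comparison, with 0.14 in VPA over vehicle (95% interval -0.09 to 0.36). CENPF, a kinetochore protein, had 7684, 9024 and 6959 normalized counts in the vehicle libraries, against 9939, 10160.4 and 9775 with VPA and 9456, 7612 and 8884 with VPA+Rapamycin. It was higher in VPA without overlap (0.33, SE 0.11, adjusted p = 0.0360), a call lost in 3 of 13 alternatives, and did not pass against vehicle with Rapamycin (0.12, SE 0.12, adjusted p = 0.521).

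The other G2/M members, CENPE, TPX2, KIF20A, KIF23, NUSAP1 and AURKB, had estimates from -0.07 to 0.25 in VPA over vehicle and none passed. With Rapamycin over VPA, AURKB (-0.35, adjusted p = 0.00999) and KIF20A (-0.25, adjusted p = 0.0463, or 0.0989 with the replicate block) were lower, and KIF20A shares its locus with BRD8 and CDC23, which had 136.5% and 83.7% of its mean count. The KIF20A call was lost in 8 of 13 alternatives. Over all G2/M members with a promoter window, 5 of the 13 with a CHR and 4 of the 5 without one were lower with Rapamycin.

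Other genes of the same pathways were read from longer lists. Of 45 other replication genes, 21 were higher and 2 lower with VPA, with a median log2 fold change of 0.37. SLBP, which binds histone transcripts, had 749 mean normalized counts in vehicle and 1267 in VPA (0.75, SE 0.12, adjusted p = 0.00106), and RPA2, of the single-strand binding complex, had 1007 and 1632 (0.69, SE 0.11, adjusted p = 0.00127). DONSON and DBF4 were lower, at -0.60 (SE 0.13, adjusted p = 0.00458) and -0.38 (SE 0.12, adjusted p = 0.0335). Of 58 other mitotic genes 10 were higher and 1 lower, with a median of 0.17, shares of 58 that lie near those of all genes for higher (16.4%) and under them for lower (15.7%). KIF4A, a chromosome motor, had the smallest p among them (0.52, SE 0.10, adjusted p = 0.00294). CDC25B, a phosphatase of entry into mitosis, was the one that was lower (-0.38, SE 0.13, adjusted p = 0.0389).

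With Rapamycin over VPA, 8 of the 45 other replication genes were lower and none higher (median -0.23), among them RFC3 of the clamp loader (-0.49, SE 0.08, adjusted p = 0.00155). Of the 58 other mitotic genes 21 were lower and 1 higher (median -0.26). Over all genes tested in this comparison 3.73% were lower and 3.01% higher. The mitotic genes with the smallest p were CKS1B (-0.52, SE 0.08, adjusted p = 0.000658), CDCA8 (-0.54, SE 0.08, adjusted p = 0.000682) and INCENP (-0.43, SE 0.08, adjusted p = 0.00227), of which CDCA8 and INCENP belong to the same complex as BIRC5 and AURKB. CDC25B was the one that was higher (0.30, SE 0.09, adjusted p = 0.0487). In VPA+Rapamycin over vehicle, 3 of the 45 other replication genes were higher (RPA2, SLBP and CHAF1B) and 2 lower. Of the 58 other mitotic genes 5 were lower and none higher. Each of these shares lay under that of all genes, where 9.81% were higher and 9.22% lower.

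Regulators of the cycle moved in both directions within families. Of 36 regulators, 9 were higher and 5 lower with VPA, against 16.4% and 15.7% of all genes. The D-type cyclins, which act in G1, diverged, with CCND1 at 9301 mean normalized counts in vehicle and 4332 in VPA (-1.11, SE 0.11, adjusted p = 6.3e-05), CCND2 also lower (-0.91, SE 0.12, adjusted p = 0.000274) and CCND3 higher (0.90, SE 0.15, adjusted p = 0.00129). The inhibitors did likewise, with CDKN2C higher (1.20, SE 0.22, adjusted p = 0.00204) and CDKN1C lower (-0.71, SE 0.12, adjusted p = 0.00122). E2F8, an E2F family repressor, was higher (1.22, SE 0.23, adjusted p = 0.00244). With Rapamycin over VPA 5 of 36 regulators were lower, including CDKN1A, the inhibitor p21. None was higher, where 3.73% of all genes were lower and 3.01% higher. CDKN1A was already lower in VPA than in vehicle (-0.75, SE 0.13, adjusted p = 0.00188), and its mean normalized count was 1001 in vehicle, 599 in VPA and 390.3 after adding Rapamycin (-0.61, SE 0.13, adjusted p = 0.00722). MYBL2, a partner of FOXM1 at G2/M promoters, was also lower with Rapamycin over VPA (-0.38, SE 0.09, adjusted p = 0.0140). Against vehicle, CDKN1A was lower at -1.37 in VPA+Rapamycin (SE 0.16, adjusted p = 0.000480).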

How the data were processed

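Poly-A RNA of 9 samples of SCOs was sequenced from libraries made with a kit that does not mark strand. According to the submitters' processing notes, HISAT2 2.0.5 and featureCounts 1.5.0-p3 were used, and the authors deposited 1 table per comparison with whole-number read counts per gene. Gene coordinates in the deposited tables are those of GRCh38. The authors also deposited FPKM values, which scale reads by gene length and depth, and these served only to compare levels between genes. The tables also hold the authors' own fold changes and p-values, which were not used.

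Counts were tested with edgeR 4.0.16 (R 4.3.3), using TMM factors, the default filter on low counts, the quasi-likelihood test and Benjamini-Hochberg adjustment over all genes tested, with a threshold of 0.05. Each comparison was fitted on its own 6 libraries. Normalized counts are counts scaled by the TMM library sizes of all 9 libraries. DESeq2 1.42.0 and other scalings, filters and sample sets were alternatives. The fit was tested on simulated data. Promoter windows came from RefSeq. Replicate codes recur across conditions and may mark clones. Deviations of same-numbered replicates correlated between -0.06 and 0.14, and the fits were made without this block. Blocked values are given where they change a call among the results for named genes. Depth was 15290299 to 17417338 counted reads.

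Values in every library are given for members chosen by role and for the most extreme estimates of each class, and for other lists up to 3 genes with the smallest p in each direction. One gene named by this rule is not reported here. The members and lists were chosen with earlier results of these data known.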

Additional observations from a re-analysis of the deposited data

How the results depend on the processing

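Each comparison rests on 3 libraries per condition, and 1 library can decide a count. Of 100 results for named genes, 44 passed the threshold. Over 1300 values under an alternative, 1113 kept their direction and their side of the threshold, 111 no longer passed, 27 newly passed and 49 had the other sign. None of those 49 had passed with either setting. The medians moved by less than the spread between replicates under every alternative, and those alternatives were chosen after seeing the data. The cause of each change below was not tested unless the setting itself shows it.

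Without a filter on low counts, 5 G2/M members were higher in VPA over vehicle in place of 3. The share of all genes that were higher was then 10.5% in place of 16.4%. With all 9 libraries in 1 fit, 0 S-phase and 2 G2/M members were lower in VPA+Rapamycin over VPA in place of 6 and 13. In the same fit 8 G2/M members were lower than vehicle in place of 5. Of all genes 0.383% were lower than VPA and 12.2% lower than vehicle in that fit. By edgeR's quasi-likelihood test in that fit of VPA+Rapamycin over VPA, 7 S-phase and 14 G2/M members were lower at an unadjusted p under 0.05, against 6.77% of all genes. Upper-quartile scaling and library totals alone each left 3 G2/M members lower in VPA+Rapamycin over vehicle, with 8.02% and 7.22% of all genes lower. Leaving out 1 library at a time, the S-phase members higher in VPA over vehicle ranged from 8 to 15 and the G2/M members from 2 to 6. The share of all genes that were higher ranged from 9.97% to 19.5%. Between the VPA conditions, 0 to 10 S-phase and 6 to 13 G2/M members were lower, with 1.66% to 3.76% of all genes lower. Against vehicle, 1 to 5 S-phase members were higher and 0 to 10 G2/M members lower in VPA+Rapamycin. Of all genes 4.24% to 12.3% were higher and 2.97% to 11.8% lower there.

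With the replicate block, a paired fit by replicate number, 14 S-phase and 3 G2/M members were higher in VPA over vehicle. In VPA+Rapamycin 6 and 11 were lower than VPA, and 6 S-phase members were higher and 6 G2/M members lower than vehicle. Of all genes 15% were higher in VPA over vehicle in place of 16.4%, and 4.07% lower in VPA+Rapamycin over VPA in place of 3.73%. In VPA+Rapamycin over vehicle 12.1% were higher and 11.1% lower, in place of 9.81% and 9.22%. The block ended the calls of PCNA, RRM1, CDC20 and KIF20A, brought MCM2, CDT1 and E2F2 past the threshold, and changed no other call among the 100 results for named genes. The counts with the block also cover members outside those results, and calls that the block changed among these are not listed.

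Estimates near 0 changed sign. For VPA over vehicle, upper-quartile scaling gave log2 fold changes of 0.0096 for CCNA2, 0.026 for CDK1 and 0.011 for BUB1, library totals alone gave 0.019, 0.035 and 0.019, and no filter gave 0.0048 for CDK1. Library totals alone gave 0.0075 for MCM5 in VPA+Rapamycin over VPA. Against vehicle, upper-quartile scaling gave 0.0028 for POLE in VPA+Rapamycin, and library totals alone gave 0.0023 for TOP2A, 0.017 for RRM1 and 0.028 for POLE. Leaving out 1 library at a time in VPA over vehicle, MCM5 ranged from -0.084 to 0.25, E2F1 from -0.016 to 0.25, CCNE2 from -0.075 to 0.15, CDK1 from -0.072 to 0.040, PLK1 from -0.048 to 0.31, AURKA from -0.18 to 0.10, BUB1 from -0.068 to 0.024 and POLE from -0.17 to 0.12. Between the VPA conditions, MCM5 ranged from -0.089 to 0.12, E2F1 from -0.00099 to 0.12, CCNE2 from -0.034 to 0.16, TTK from -0.16 to 0.012 and CDC25C from -0.053 to 0.092. For VPA+Rapamycin over vehicle, MCM5 ranged from -0.095 to 0.24, CDT1 from -0.039 to 0.46, CCNE2 from -0.045 to 0.18, TOP2A from -0.14 to 0.018, CDC20 from -0.062 to 0.26, PLK1 from -0.35 to 0.0084, RRM1 from -0.16 to 0.048 and POLE from -0.20 to 0.086.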
